A study of Mus musculus with 18 samples.

Results

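The glypicans and syndecans are the core proteins that carry heparan sulfate on the cell surface. The 6 glypican genes (*Gpc1* to *Gpc6*) and the 4 syndecan genes (*Sdc1* to *Sdc4*) were taken by gene symbol from a table of 51912 mouse genes. All 10 had at least 10 read pairs over the 18 libraries, the filter that 24495 genes passed, but *Gpc2*, *Gpc5* and *Gpc3* passed it on few reads (4 to 29, 12 to 63 and 80 to 207 read pairs per library).

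Primary astrocytes were grown from the cortices, at postnatal day 0, of male and female mice in equal number that were hemizygous for Aldh1l1-EGFP/Rpl10a, a transgene that places EGFP on the ribosomal protein Rpl10a under the *Aldh1l1* promoter. Every group carried this transgene on a mixed C57BL/6J and FVB background and had 14 days in culture, replating, 6 more days and 24 h without serum. Cells then received 50 mM ethanol or control serum-free medium for 24 h. Translating ribosome affinity purification (TRAP) with GFP antibodies gave the IP fraction of 6 control and 6 ethanol dishes, and part of the cleared lysate of 3 control and 3 ethanol dishes gave the input fraction. The tag marks ribosomes only where the *Aldh1l1* promoter is active, so IP is enriched for ribosome-bound RNA of tagged cells. Input holds RNA of all cells in the dish. The enrichment was not complete, as all 10 microglia markers were above 0 in every IP library. Dishes are numbered in the labels, with no word on whether they came from separate preparations, so p-values measure the spread between dishes.

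Libraries held 74239854 to 132810705 read pairs on genes (median 84119135) and none was left out. *Aldh1l1*, whose promoter drives the tag, was at 375 ± 14.9 CPM in IP (SD, n = 12) and 181 ± 9.87 CPM in input (SD, n = 6), where CPM is the read pair count relative to library size after TMM scaling. *Rpl10a*, the tagged protein's gene, was lower in IP (245 ± 9.10 against 354 ± 11.4 CPM). Summed over 10 astrocyte markers, levels ran from 1201 to 1253 CPM in input control and from 1889 to 1979 CPM in IP control, whereas 10 microglia markers ran from 89.6 to 93.2 CPM and from 15.5 to 16.7 CPM. The 10 fibroblast and meningeal markers summed to 309 to 320 CPM in input control and 204 to 224 CPM in IP control. Within this list *Col1a1* (143 CPM in input control and 45.6 CPM in IP control) and *Dcn* (22.2 and 6.25 CPM) were lower in IP. *Col1a2* (45.1 and 54.3 CPM) and *Foxc1* (20.0 and 26.6 CPM) were higher, and over the list 6 were lower and 3 higher in IP. Transcripts listed as markers of other cell types were thus present, but their cells of origin were not tested. Other lists of 10 markers had higher sums in IP control than in input control, from 168.4 to 172 up to 215 to 231 CPM for neurons, from 262 to 283 up to 403 to 424 CPM for the oligodendrocyte lineage and from 1299 to 1368 up to 1625 to 1759 CPM for endothelial and mural cells. In the neuron list 5 of 10 genes averaged at least 1 CPM in each group. The highest were *Stmn2* (89.2 CPM in input control and 108 CPM in IP control) and *Map2* (57.6 and 84.0 CPM). *Slc17a6* was at 0 in every library. *Rbfox3* (0.336), *Slc17a7* (0.258), *Snap25* (0.0508) and *Dcx* (0.0416 CPM in input control) averaged below 1 CPM in every group. In the endothelial and mural list *Acta2* alone made up most of the sum, at 1186 CPM in input control and 1589 CPM in IP control. *Pdgfrb* of mural cells was lower in IP control (94.5 CPM) than in input control (137 CPM), and *Cldn5* was at 0 in every library. Of the 9 tested markers of this list 2 were higher and 4 lower in IP.

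Glypicans are tied to the membrane by a glycosylphosphatidylinositol (GPI) anchor, and syndecans cross the membrane and end in a short cytoplasmic tail. Their heparan sulfate chains hold growth factors, morphogens and guidance proteins at the cell surface, and enzymes can release the core proteins into the medium. In the developing cortex astrocytes release Gpc4 and Gpc6, which are known to promote the formation of excitatory synapses, and Sdc3 is known as a receptor of pleiotrophin in neural tissue.

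The 4 syndecans are alike at the cytoplasmic end, where PDZ domain proteins such as syntenin (*Sdcbp*) bind, and this stretch is shown because the partners of the tail are described with the members later. The last 45 bases of the longest complete coding sequence, stop codon included, are given 5′ to 3′ from GENCODE transcripts on GRCm38, with capitals for the 14 bases that are identical in all 4. They lie at chr12:8791763-8791807 (plus strand) for *Sdc1*, chr15:33032496-33032540 (plus) for *Sdc2*, chr4:130822765-130822809 (plus) for *Sdc3* and chr2:164426086-164426130 (minus) for *Sdc4*.
Sdc1: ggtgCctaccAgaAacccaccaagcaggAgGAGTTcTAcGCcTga
Sdc2: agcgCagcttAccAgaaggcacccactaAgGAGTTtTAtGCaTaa
Sdc3: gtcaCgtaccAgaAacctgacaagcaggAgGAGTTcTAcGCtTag
Sdc4: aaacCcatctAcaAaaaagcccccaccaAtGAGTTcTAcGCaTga
Of the identical bases, 11 fell in the final 18. In global alignments of the coding sequences, identity was counted over aligned bases only, with gaps left out. *Sdc3* and *Sdc4* had the highest syndecan share, 66.4% of 593 aligned bases, though *Sdc3* has 1329 bases. *Sdc1* and *Sdc3* had 64.4% of 922. These shares cover unlike lengths, so they do not settle which syndecan pair is closest. Among glypicans the highest share was that of *Gpc4* and *Gpc6*, with 66.6% of 1657. Coding length ran from 597 bases (*Sdc4*) to 1329 bases (*Sdc3*) among syndecans and from 1674 (*Gpc1* and *Gpc4*) to 1938 bases (*Gpc5*) among glypicans.

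Promoter windows, from 250 bases before to 50 bases after the RefSeq start on GRCm38.p6, matched 7 of the 10 genes (*Gpc2*, *Gpc3*, *Gpc4*, *Gpc5*, *Sdc1*, *Sdc3* and *Sdc4*). The 4 below belong to the genes with the highest levels (*Sdc4* and *Gpc4*), to *Sdc1*, the member of the 7 that was ethanol-regulated in IP, and to the scarce *Gpc5*. Capitals mark GGGCGG or its reverse complement CCGCCC, the core of the GC box, which was present on either strand in 35.7% of 32851 promoter windows of this length.
Sdc4: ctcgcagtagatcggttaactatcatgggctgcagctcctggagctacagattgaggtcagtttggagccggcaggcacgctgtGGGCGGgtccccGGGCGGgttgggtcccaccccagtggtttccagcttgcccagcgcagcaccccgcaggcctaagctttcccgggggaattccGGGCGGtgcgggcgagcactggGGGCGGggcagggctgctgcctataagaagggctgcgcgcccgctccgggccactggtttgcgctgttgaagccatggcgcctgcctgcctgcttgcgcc
Gpc4: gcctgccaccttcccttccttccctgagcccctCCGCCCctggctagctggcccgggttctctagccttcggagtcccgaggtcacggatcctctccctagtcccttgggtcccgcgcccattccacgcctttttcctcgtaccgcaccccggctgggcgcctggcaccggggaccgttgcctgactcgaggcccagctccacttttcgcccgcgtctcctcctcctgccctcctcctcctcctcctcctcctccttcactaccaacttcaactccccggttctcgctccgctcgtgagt
Sdc1: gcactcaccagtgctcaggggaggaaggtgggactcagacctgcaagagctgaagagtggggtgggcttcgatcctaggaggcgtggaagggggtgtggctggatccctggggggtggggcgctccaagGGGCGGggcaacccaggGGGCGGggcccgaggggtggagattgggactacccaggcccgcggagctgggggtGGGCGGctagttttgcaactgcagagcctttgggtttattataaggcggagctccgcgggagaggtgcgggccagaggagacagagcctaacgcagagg
Gpc5: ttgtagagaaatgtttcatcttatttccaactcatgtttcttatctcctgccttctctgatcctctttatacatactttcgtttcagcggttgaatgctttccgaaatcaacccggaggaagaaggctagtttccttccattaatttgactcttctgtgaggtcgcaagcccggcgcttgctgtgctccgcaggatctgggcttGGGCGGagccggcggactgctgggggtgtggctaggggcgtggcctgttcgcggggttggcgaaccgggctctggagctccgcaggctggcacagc
These are chr2:164443139-164443438 (minus strand), chrX:52164874-52165173 (minus), chr12:8771146-8771445 (plus) and chr14:115091965-115092264 (plus). The letters occurred 4 times for *Sdc4*, 1 time for *Gpc4*, 3 times for *Sdc1* and 1 time for *Gpc5*, so the count did not separate the abundant from the scarce genes. *Gpc5* alone among the 7 held TATAAA or TTTATA, letters found in 13.6% of all windows, and its GC content of 54.7% was the lowest of the 7 (65.7% to 77.7% in the others).

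Levels per kilobase of exon (CPM per kb, over the union of annotated exons) differed widely among the members. In IP control, *Sdc4*, a syndecan of focal adhesions that binds protein kinase C alpha, stood at 268 ± 5.47 CPM per kb (SD, n = 6), above 99.6% of 24424 genes. *Gpc4* stood at 210 ± 6.16 and *Sdc2*, a syndecan of mesenchymal and neural cells, at 71.6 ± 1.53 CPM per kb. *Sdc3* (39.0 ± 0.967), *Sdc1* (28.9 ± 0.551) and *Gpc6* (27.8 ± 1.33 CPM per kb) followed, and the ranges of *Sdc1* (28.2 to 29.6) and *Gpc6* (26.4 to 30.0) overlapped. *Gpc1*, known as a co-receptor of fibroblast growth factors, stood at 5.89 ± 0.157 CPM per kb.

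The remaining 3 glypicans were scarce, and *Gpc5* and *Gpc2* were near the limit of what these libraries could measure. *Gpc3*, a glypican that binds hedgehog proteins, was at 0.546 ± 0.0824 CPM per kb in IP control (SD, n = 6). *Gpc5* (0.0796 ± 0.0282) and *Gpc2*, the glypican of developing neurons (0.0346 ± 0.0120), overlapped in range. All other neighbours in this order had ranges that did not overlap.

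In input control the order was the same but for *Sdc1* and *Sdc3*, with *Sdc1* at 47.0 ± 0.934 and *Sdc3* at 29.4 ± 0.576 CPM per kb (SD, n = 3), ranges that did not overlap. There *Gpc5* and *Gpc2* were also apart, at 0.105 to 0.155 and 0.0107 to 0.0292 CPM per kb. With the longest transcript as length, *Gpc6* came above *Sdc1* in both IP groups, at 43.1 ± 2.06 CPM per kb in IP control, and *Gpc5* was at 0.125 ± 0.0442 CPM per kb there. Summed, the 6 glypicans made up 30.8% ± 0.431 of the level of all 10 genes in input control (SD, n = 3) and 37.4% ± 0.823 in IP control (SD, n = 6), and *Gpc4* made up 26.8% ± 0.507 and 32.2% ± 0.705.

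**Figure D1:**
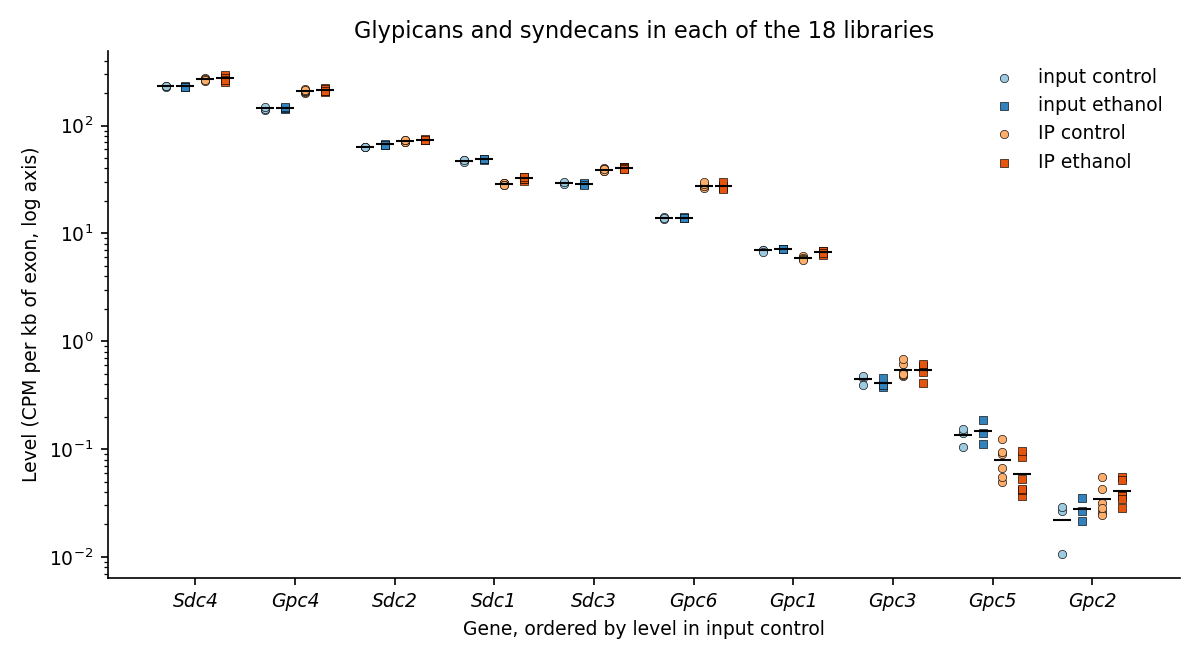
Levels of the 10 genes in each of the 18 libraries, in CPM per kb of exon on a log axis, with a point for each library and a bar for the group mean. *Sdc4* and *Gpc4* sit highest in all 4 groups, and *Gpc3*, *Gpc5* and *Gpc2* sit below 1 CPM per kb.

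Comparing IP with input asked which core protein transcripts were relatively abundant on tagged astrocyte ribosomes. Of the 10 genes, 6 were higher and 3 lower in IP, and *Gpc2* did not pass the threshold (adjusted p below 0.05 in edgeR's quasi-likelihood test with Benjamini-Hochberg adjustment over 24495 genes). Over all genes 51% passed, 25.2% higher and 25.8% lower. Libraries of IP and input did not overlap for 6 of the 10 genes (*Gpc4*, *Gpc6* and the 4 syndecans), against 25% of all genes. The median log2 fold change was 0.30 over the 10 genes and -0.028 over all genes. In whole dishes and lysates, fewer cells of a type and less RNA per cell cannot be told apart.

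*Gpc6* (chr14:116925315-117976544) had the highest fold increase. Its 6 input libraries ran from 86.7 to 91.8 CPM (median 89.5) and its 12 IP libraries from 167.4 to 193 CPM (median 176). IP was 1.98-fold higher (log2 fold change 0.99, SE 0.025, adjusted p = 5.57e-34). *Gpc5*, its neighbour 400135 bases upstream on the same strand (chr14:115092215-116525179), went the other way. It ran from 0.468 to 0.820 CPM in input (median 0.632) and from 0.164 to 0.551 CPM in IP (median 0.270), with some overlap, and was 2.02-fold lower in IP (log2 fold change -1.01, SE 0.19, adjusted p = 3.58e-06).

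*Gpc4* (chrX:52053021-52165252) ran from 372 to 396 CPM in input (median 383) and from 531 to 588 CPM in IP (median 558). Every IP library was above every input library, and IP was 1.46-fold higher (log2 fold change 0.54, SE 0.020, adjusted p = 6.02e-37). *Gpc3*, the next gene on this strand with 107173 bases between them (chrX:52272426-52613950), was also higher (log2 fold change 0.37, SE 0.10, adjusted p = 0.00184). Its levels were low, at 1.02 to 1.27 CPM in input and 1.09 to 1.83 CPM in IP, the ranges overlapped, and with control libraries alone the adjusted p was 0.0953.

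*Gpc1* (chr1:92831645-92860779) was lower in IP by a small margin, with 35.0 to 37.2 CPM in input (median 36.6) and 29.3 to 35.8 CPM in IP (median 32.1). The log2 fold change was -0.17 (SE 0.027, adjusted p = 2.02e-07), and in ethanol libraries alone it was -0.094 (SE 0.040, adjusted p = 0.051). *Gpc2* (chr5:138273655-138280005) had 0.0456 to 0.151 CPM in input and 0.104 to 0.236 CPM in IP (log2 fold change 0.59, 95% confidence interval -0.0084 to 1.19, adjusted p = 0.0963). It shares 2376 of its 4274 exon bases with the overlapping gene *Gm43720* on the same strand, and read pairs that fit both genes were not counted, so its level is uncertain. *Gpc1* shares 977 exon bases with *Ankmy1* on the opposite strand, and counting by strand gave *Gpc1* 1.10 times as many read pairs. The same held for *Sdc3* (463 shared bases, 1.19 times) and *Gpc5* (107 shared bases, 1.18 times).

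Among syndecans, *Sdc1*, *Sdc3*, *Sdc2* and *Sdc4* each had IP and input libraries that did not overlap. *Sdc1* (chr12:8771323-8793715), best known from epithelia and plasma cells, ran from 175 to 186 CPM in input (median 183) and from 108 to 128 CPM in IP (median 115). It was 1.56-fold lower in IP (log2 fold change -0.64, SE 0.020, adjusted p = 1.26e-40). *Sdc3* (chr4:130792537-130826319) ran from 167.5 to 180 CPM in input and from 225 to 249 CPM in IP, 1.37-fold higher (log2 fold change 0.46, SE 0.020, adjusted p = 3.72e-32). *Sdc3* thus took the place above *Sdc1* in the IP order of levels per kilobase.

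*Sdc4* (chr2:164424247-164443887) ran from 578 to 598 CPM in input and from 652 to 755 CPM in IP (log2 fold change 0.23, SE 0.020, adjusted p = 2.08e-16). *Sdc2* (chr15:32920723-33034935) ran from 221 to 240 CPM in input and from 246 to 266 CPM in IP (log2 fold change 0.16, SE 0.018, adjusted p = 2.92e-12). These were small differences, at 1.17-fold and 1.12-fold, set against a narrow spread between libraries. From input to IP, 9 of 10 astrocyte markers were higher and 1 lower, 9 of 10 microglia markers were lower and none higher, and 6 of 10 fibroblast and meningeal markers were lower and 3 higher. Of 9 neuron markers tested 5 were higher and 1 lower, of 10 oligodendrocyte lineage markers 5 were higher and 4 lower, and of 9 endothelial and mural markers tested 2 were higher and 4 lower. The part of these shifts in the member results was not tested.

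**Figure D2:**
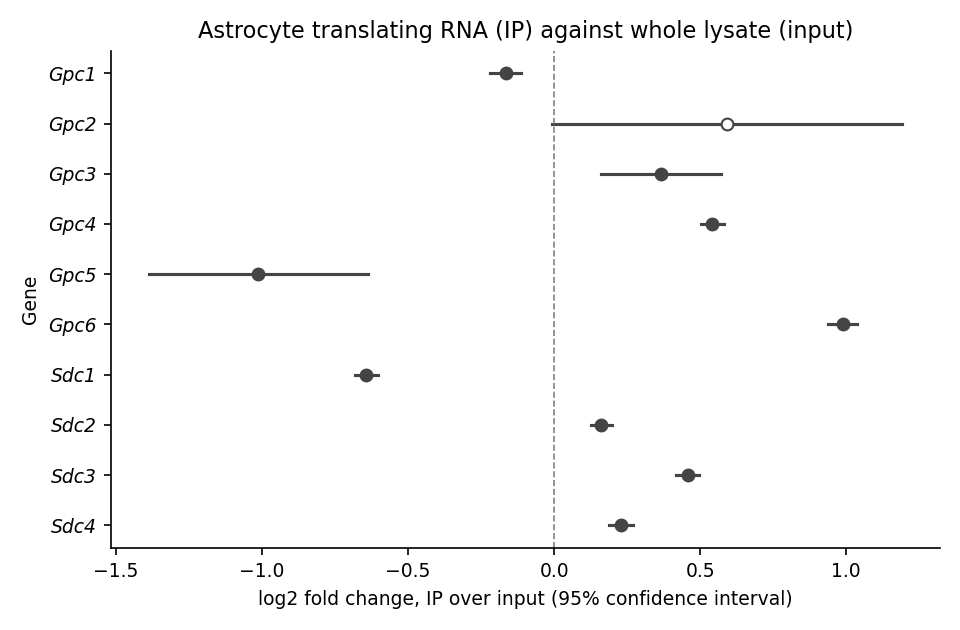
log2 fold change of each gene in IP over input, with 95% confidence intervals from edgeR's quasi-likelihood test (12 IP and 6 input libraries). Filled points passed adjusted p below 0.05 (9 of 10), open points did not, and *Gpc6* at 0.99 and *Gpc5* at -1.01 lie farthest from 0.

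Ethanol was compared with control within IP to ask which of these transcripts were ethanol-regulated in that fraction. *Gpc1* and *Sdc1* were higher with ethanol and no member was lower, 2 of 10 against 21.4% of all genes (11.9% higher and 9.48% lower). The median log2 fold change was 0.045 over the members and 0.0054 over all genes. Control and ethanol libraries did not overlap for 3 members (*Gpc1*, *Sdc1* and *Sdc2*), against 9.96% of all genes.

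*Gpc1* ran from 29.3 to 31.7 CPM in IP control (median 30.3) and from 32.5 to 35.8 CPM in IP ethanol (median 35.1). All 6 ethanol libraries were above all 6 control libraries, and the level was 14.8% higher (log2 fold change 0.20, SE 0.032, adjusted p = 2.39e-06). In the dishes without an input library (replicates 1 to 3) the log2 fold change was 0.18 (SE 0.048, adjusted p = 0.00471), and in the other 3 dishes of each group it was 0.21 (SE 0.045, adjusted p = 4.95e-05).

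*Sdc1* ran from 108 to 113 CPM in IP control (median 111) and from 117 to 128 CPM in IP ethanol (median 123). Again no control library reached any ethanol library, and the level was 12.3% higher (log2 fold change 0.17, SE 0.025, adjusted p = 4.17e-07). The log2 fold change was 0.15 (SE 0.037, adjusted p = 0.00147) in replicates 1 to 3 and 0.18 (SE 0.033, adjusted p = 4.41e-06) in replicates 4 to 6. Even so, *Sdc1* in IP ethanol remained below its lowest input library at 175 CPM.

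*Sdc2* ran from 246 to 259 CPM in IP control and from 259 to 266 CPM in IP ethanol. The groups did not overlap, but by less than 1 CPM, and the test was not passed (log2 fold change 0.051, 95% confidence interval 0.0057 to 0.097, adjusted p = 0.106). *Sdc3* (0.061, interval 0.014 to 0.11, adjusted p = 0.0563) and *Sdc4* (0.038, interval -0.011 to 0.088, adjusted p = 0.315) had overlapping groups. With a correction for GC content and length, *Sdc2* (0.056, adjusted p = 0.0216) and *Sdc4* (0.057, adjusted p = 0.0265) passed too, whereas *Sdc3* went to -0.00031 (adjusted p = 0.995).

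For the abundant astrocyte glypicans any ethanol difference in IP was small. The interval of the log2 fold change was -0.021 to 0.073 for *Gpc4* and -0.071 to 0.054 for *Gpc6*. For the scarce members it was wide, at -0.21 to 0.24 for *Gpc3*, -0.90 to 0.12 for *Gpc5* and -0.35 to 0.89 for *Gpc2*, so changes of that size were not detectable at this depth.

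**Figure D3:**
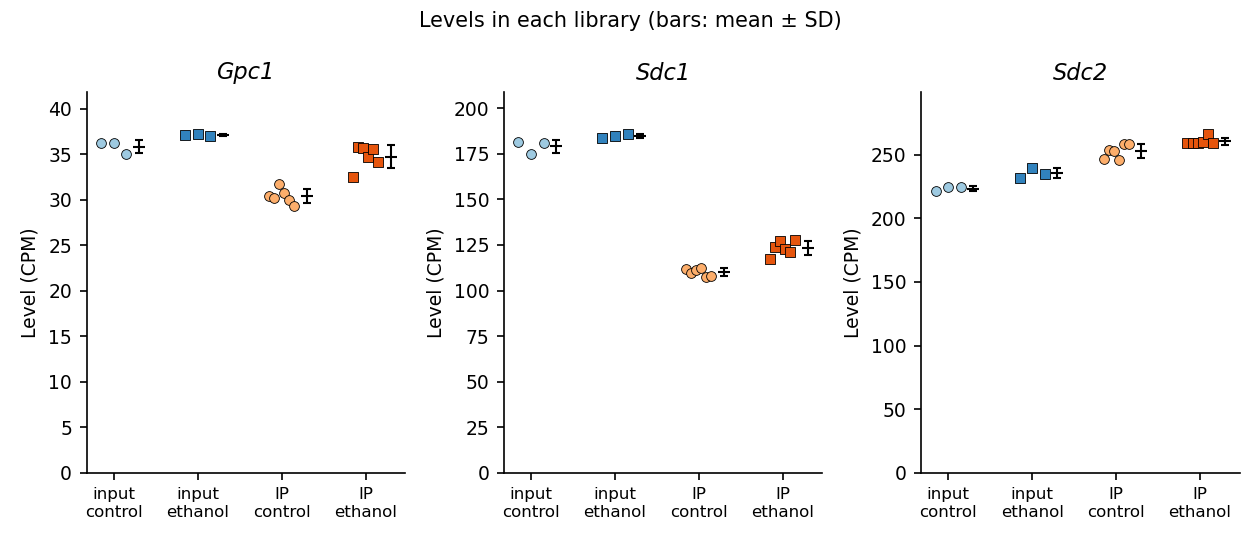
Levels of *Gpc1*, *Sdc1* and *Sdc2* in each library, in CPM on axes that start at 0, with mean and SD beside each group (3 input and 6 IP libraries per treatment). Ethanol libraries lie above control libraries in both fractions for all 3 genes, most clearly for *Gpc1* and *Sdc1* in IP.

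Within input, *Sdc2* was the only member to pass, 1 of 10 against 15% of all genes (7.21% higher and 7.78% lower). Its libraries held 221, 225 and 225 CPM in control and 232, 240 and 235 CPM with ethanol, so the groups did not overlap. The level was 5.12% higher (log2 fold change 0.072, SE 0.023, adjusted p = 0.0157). The call was lost without control replicate 4 (adjusted p = 0.0898), without control replicate 6 (0.0503), without ethanol replicate 5 (0.116) or with the GC and length correction (0.136).

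*Gpc1* held 36.2, 36.2 and 35.0 CPM in input control and 37.1, 37.2 and 36.9 CPM in input ethanol. *Sdc1* held 181, 175 and 181 CPM in input control and 184, 185 and 186 CPM in input ethanol. Neither gene overlapped between groups, as did not *Sdc2*, so 3 of 10 members were apart against 27.1% of all genes in this comparison of 3 with 3 libraries. The tests were not passed, with log2 fold changes of 0.045 for *Gpc1* (SE 0.038, adjusted p = 0.531) and 0.041 for *Sdc1* (SE 0.023, adjusted p = 0.273).

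The other 7 members had log2 fold changes between -0.12 (*Gpc3*) and 0.32 (*Gpc2*) in input, none past the threshold. *Sdc3* was at -0.042 (interval -0.088 to 0.0033) there and at 0.061 in IP, and with the GC and length correction these were -0.058 and -0.00031.

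**Figure D4:**
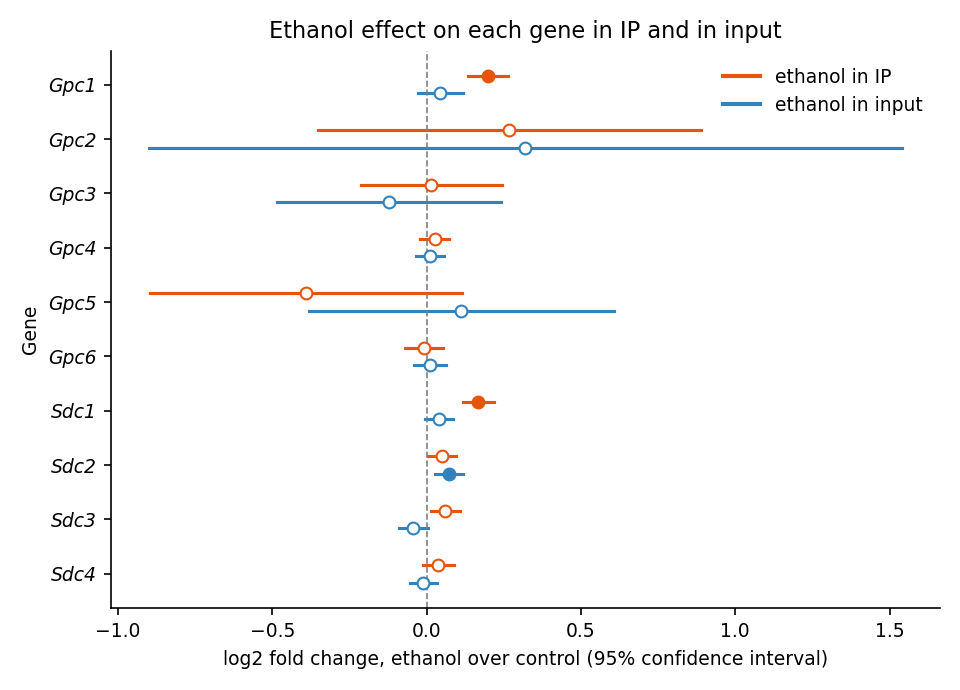
log2 fold change with ethanol for each gene in IP (6 with 6 libraries) and in input (3 with 3 libraries), with 95% confidence intervals from edgeR's quasi-likelihood test. Filled points passed adjusted p below 0.05: *Gpc1* and *Sdc1* in IP and *Sdc2* in input.

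Whether ethanol acted differently in IP and input was asked with an interaction term fitted across all 18 libraries. No member passed, nor did any gene (0% of 24495), though 1459 genes had an unadjusted p below 0.05, and DESeq2 called 2 genes and no member. The log2 effect in IP exceeded that in input by 0.11 for *Sdc1* (SE 0.039, adjusted p = 0.691, unadjusted p = 0.00417) and by 0.14 for *Gpc1* (SE 0.052, adjusted p = 0.737, unadjusted p = 0.00728).

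Because input and IP of replicates 4 to 6 came from the same dish, the ratio of IP to input was also read dish by dish. For *Sdc1* the ratio was 0.621, 0.614 and 0.598 in control dishes and 0.667, 0.655 and 0.687 in ethanol dishes. For *Gpc1* it was 0.848, 0.828 and 0.836 in control dishes and 0.936, 0.956 and 0.924 in ethanol dishes. For *Sdc3* it ran from 1.30 to 1.36 and from 1.38 to 1.41. These 3 members had control and ethanol dishes that did not overlap, against 12.9% of all genes.

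With the dish as a block over these 12 libraries, the *Sdc1* difference was 0.15 (SE 0.037, adjusted p = 0.0189), and 0.13 (SE 0.033, adjusted p = 0.0397) with the GC and length correction added. The same 12 libraries without the block gave 0.15 (SE 0.040, adjusted p = 0.146). Leaving out a dish, an alternative chosen after seeing the data, gave 0.13 to 0.17 for *Sdc1*, and the call was lost without dish 16, 18, 23 or 24. The *Gpc1* difference under the block was 0.18 (SE 0.057, adjusted p = 0.136).

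**Figure D5:**
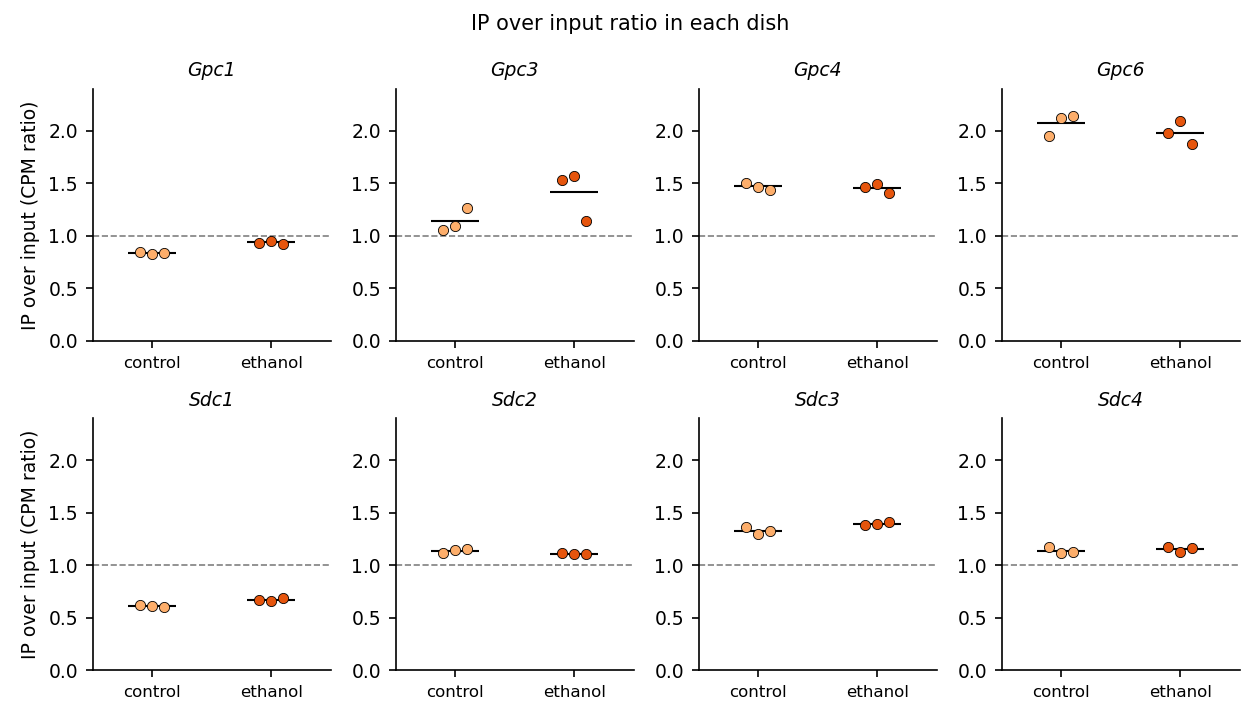
Ratio of IP to input CPM in each of the 3 control and 3 ethanol dishes that gave both fractions, for the 8 genes above 1 CPM, with bars for the means and a dashed line at 1. *Sdc1* and *Gpc1* lie below 1 and move up with ethanol, and *Gpc6* lies near 2 in both treatments.

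Marker sums also moved with ethanol. The astrocyte marker sum in IP went from 1889 to 1979 CPM in control to 2025 to 2119 CPM with ethanol, with 5 of 10 markers higher and none lower. The endothelial and mural marker sum in IP went from 1625 to 1759 CPM to 1052 to 1247 CPM, where *Acta2*, smooth muscle actin, was the only 1 of 9 tested markers to pass (log2 fold change -0.56, SE 0.040, adjusted p = 7.24e-08), named here after its value was seen. In input the astrocyte sum went from 1201 to 1253 CPM to 1259 to 1287 CPM, with 5 of 10 markers higher and 3 lower, and the endothelial and mural sum from 1299 to 1368 CPM to 899 to 967 CPM. The part of these shifts in the *Gpc1*, *Sdc1* and *Sdc2* results was not tested.

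The counts of pathway genes that follow stand beside the called shares of all genes given above, 51% for IP against input, 21.4% for ethanol in IP and 15% for ethanol in input. Genes named from each list are those of at least 5 CPM on average with the largest fold changes among called genes.

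The enzymes that build heparan sulfate chains were read from a list of 27 genes, all tested. In IP compared with input 10 were higher and 7 lower (12 lower with total counts in place of TMM), with a median log2 fold change of -0.0061. *Extl1*, an exostosin-like glycosyltransferase (0.67, SE 0.041), and *Xylt1*, the xylosyltransferase that starts the chain linker (0.61, SE 0.040), had the largest rises among genes of at least 5 CPM (*Hs6st3*, at 1.37 CPM, was at 0.68). *Hs6st2*, a 6-O-sulfotransferase (-1.03, SE 0.028), and *B3gat3*, which completes the linker (-0.42, SE 0.026), had the largest falls at that level. With ethanol 8 were higher and 1 lower in IP. Among those higher were *Hs3st4*, a 3-O-sulfotransferase (0.37, SE 0.057), and *B4galt7*, a galactosyltransferase of the linker (0.15, SE 0.040). In IP replicates 4 to 6 alone 4 were higher, in replicates 1 to 3 alone 2, and none was lower in either. DESeq2 or sense strand counts also gave none lower, and the GC and length correction gave 2 lower. In input 4 were higher, *Hs2st1* (0.12, SE 0.026) and *Ext2* (0.11, SE 0.023) among them, and 2 lower, *Hs3st1* (-0.16, SE 0.055) and *Ndst1* (-0.067, SE 0.023).

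Enzymes that edit the chains or release the core proteins made a list of 12. From input to IP 4 were higher, with *Mmp14*, a membrane metalloproteinase (0.25, SE 0.019), and *Gpld1*, a phospholipase that cuts GPI anchors (0.24, SE 0.039), in front. Another 6 were lower, with *Mmp9* (-1.56, SE 0.080) and the 6-O-endosulfatase *Sulf1* (-1.28, SE 0.020) lowest among genes of at least 5 CPM. The heparanase *Hpse*, at 3.86 CPM, was lower still (-1.85, SE 0.060). With ethanol 6 rose and none fell in IP. *Adam17*, a protease known to shed Sdc1 and Sdc4, went from 123 ± 3.26 to 141 ± 4.28 CPM in IP (log2 fold change 0.21, SE 0.025, adjusted p = 1.88e-09) and was higher in input too (0.14, SE 0.025, adjusted p = 1.45e-06). *Sulf1* rose in IP (0.15, SE 0.026), *Mmp2* rose in input (0.097, SE 0.030) and *Mmp9* fell in input (-0.53, SE 0.062), where 5 were higher (3 with the GC and length correction) and 1 lower.

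Other proteoglycans that carry heparan sulfate (7 genes) all differed between IP and input, 4 higher and 3 lower. Collagen XVIII (*Col18a1*, 0.50, SE 0.019) and perlecan (*Hspg2*, 0.43, SE 0.025) of the basement membrane rose, and betaglycan (*Tgfbr3*, -0.60, SE 0.026) and neuropilin 1 (*Nrp1*, -0.23, SE 0.022) fell. With ethanol 4 of 7 rose in IP and none fell. DESeq2, its size factors in edgeR or edgeR's own expression filter each gave 1 lower, and the GC and length correction gave 2 lower. Among the genes higher in IP were *Tgfbr3* (0.27, SE 0.032) and *Nrp1* (0.17, SE 0.028). Both were also higher in input (0.18, SE 0.033 and 0.20, SE 0.026), the 2 that rose there (4 with total counts), where *Col18a1* (-0.15, SE 0.023) and *Hspg2* (-0.075, SE 0.022) were lower.

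Ligands and receptors that bind heparan sulfate made a list of 26. Of these 15 were higher and 7 lower in IP than in input, led among genes of at least 5 CPM by the guidance pair *Slit3* (0.72, SE 0.029) and *Robo2* (0.71, SE 0.035) and by *Bmp4* (-0.72, SE 0.028) and *Slit2* (-0.45, SE 0.020). The growth factor *Fgf9*, at 1.42 CPM, was at -0.82 (SE 0.10). With ethanol 14 rose (9 with the GC and length correction) and 2 fell in IP, a called share of 61.5% against 21.4% of all genes and a median log2 fold change of 0.085. The receptor phosphatase *Ptprd* (0.31, SE 0.047) and *Robo2* (0.21, SE 0.032) rose, and the growth factors *Hbegf* (-0.13, SE 0.024) and *Fgf1* (-0.11, SE 0.024) fell. In input 6 rose and 2 fell, with *Ptprd* (0.23, SE 0.049) and *Fgf2* (0.17, SE 0.039) higher and *Bmp4* (-0.18, SE 0.036) and *Hbegf* (-0.094, SE 0.023) lower.

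Partners of the syndecan tail and the actin proteins they reach made a list of 13. From input to IP 8 were higher, with *Prkca* (0.38, SE 0.022) and *Dnm2* (0.33, SE 0.019) in front, and *Tiam1* (-0.26, SE 0.039) and *Actn4* (-0.11, SE 0.040) were lower. With ethanol none rose in either fraction and 2 fell in IP, while the GC and length correction gave 1 higher and 4 lower there. Cortactin (*Cttn*) went from 471 ± 21.1 to 384 ± 23.3 CPM in IP (log2 fold change -0.29, SE 0.039, adjusted p = 4.35e-05) and alpha-actinin 1 (*Actn1*) from 573 ± 31.0 to 482 ± 26.0 CPM (-0.24, SE 0.041, adjusted p = 0.000462). The same pair led the 5 genes that fell in input (*Actn1* -0.23, SE 0.022, and *Cttn* -0.16, SE 0.023).

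Genes whose levels followed the top glypican and the top syndecan were sought among 11059 genes over the 18 libraries, as a description. For *Gpc4* the highest Pearson r belonged to *Prnp*, the prion protein (0.994), *Gnao1*, a G protein subunit (0.993), and *Prdm16*, a transcriptional regulator (0.992). The libraries share the division into IP and input, and with group means removed r was 0.685, 0.644 and 0.629. For *Sdc4* they were *Lcn2*, lipocalin 2 (0.974), *Serpina3n*, a protease inhibitor (0.973), and *Ptx3*, a pentraxin (0.970), with 0.847, 0.844 and 0.786 once group means were removed.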

How the data were processed

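RNA of TRAP (IP) and input fractions was sequenced as stranded, ribosome-depleted total RNA from 18 libraries. Per the labels, the authors trimmed reads with Trimmomatic and aligned read pairs to GRCm38 with Ensembl annotation in STAR, and deposited raw counts of read pairs per gene, unstranded in the table used here and also by strand in a file per library. Tool versions are not given in the sources used here. In the deposited STAR files, 15.0% to 18.8% of read pairs fell in the 4 rows that name no gene (unmapped, multimapping, no feature or ambiguous), and these stayed out of library sizes and tests. Symbols that a spreadsheet had turned into dates (27 genes) were restored from GENCODE M21.

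The members and all gene lists were chosen with earlier results of these data known. A summed count of 10 or more across all libraries kept 24495 genes, which were scaled by TMM and tested with edgeR 4.0.16 (robust quasi-likelihood fit in R 4.3.3) and Benjamini-Hochberg adjustment over all of them, with the threshold at adjusted p below 0.05. The study used DESeq2, run here as an alternative (version 1.42.0). IP was compared with input over 18 libraries with treatment as covariate, ethanol with control within IP (6 with 6) and within input (3 with 3), and the difference of the ethanol effects as an interaction. A standard error is the absolute log2 fold change over the square root of F. Levels per kilobase used the union of annotated exons (GENCODE M21). All 10 members were described, and from each list up to 2 genes higher and 2 lower per comparison, those with the largest absolute log2 fold change among called genes of at least 5 CPM on average. The functions were tested on simulated data. Replicates 4 to 6 of both fractions share a dish in the labels. Deviations of the same dish from the group means correlated at r = 0.034 to 0.206 between fractions (mean 0.102). For different dishes of the same treatment r ran from -0.176 to 0.133 (mean -0.0205), so the ranges overlapped. The fit with dish as a block, other scalings, filters, strand, a spline of GC content and length (4 degrees of freedom each) and each library left out were tried. Coding sequences were aligned with Biopython 1.88, and promoter sequences came from RefSeq (GRCm38.p6). Libraries held 74239854 to 132810705 read pairs on genes. Counts limited precision for the scarce members, and fell to 4 pairs in a library for the scarcest. Among abundant members precision did not simply follow counts. The SE for ethanol in IP was 0.025 for both *Sdc1* (8013 to 16129 pairs per IP library) and *Sdc4* (49550 to 91977).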

Additional observations from a re-analysis of the deposited data

Results flagged for a closer look

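The *Sdc1* ethanol effect differed between IP and input by the test of the difference itself when the dish was a block. The difference was 0.15 on the log2 scale (SE 0.037, adjusted p = 0.0189 in edgeR's quasi-likelihood test) and 0.13 (SE 0.033, adjusted p = 0.0397) with the GC and length correction. In the same 12 libraries, the IP over input ratio was higher in 3 of 3 ethanol dishes than in every control dish. Control and ethanol dishes were apart in either direction for 12.9% of all genes. The call under the block was lost without dish 16, 18, 23 or 24. Without the block the difference was 0.15 in the same 12 libraries (adjusted p = 0.146) and 0.11 over the 18 libraries (adjusted p = 0.691).

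*Sdc2* in IP ethanol replicate 5 stood far from the other libraries of its group, at 266.1 CPM against 259.1 to 259.7 CPM in the other 5. The gap to its nearest neighbour was 0.919 of the range of the group, above Dixon's critical value for 6 libraries. Chance marks about 1 in 20 groups in this way, and 20 groups of 6 libraries were examined.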

How the results depend on the processing

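The number of members past the threshold stayed at 8 to 10 for IP against input and at 2 or 3 for ethanol in IP under every alternative but the GC and length correction, which gave 4 for ethanol in IP (*Sdc2* and *Sdc4* added) and 0 for ethanol in input. Leaving out a library gave 9 to 9 members for IP against input, 2 to 2 for ethanol in IP, 0 to 1 for ethanol in input and 0 to 0 for the difference of the ethanol effects. With the dish as a block, alone or with the GC and length correction, 1 member (*Sdc1*) passed for the difference of the ethanol effects, and over all genes the block gave 102 calls against 13 in the same 12 libraries without it. The block changed no other member call. The cause was not tested. No member fold change that was called reversed its sign.

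Of 910 member fold changes under the alternatives above and in the methods, 864 kept direction and side of the threshold, 6 fell below it, 6 passed it and 34 uncalled values changed sign. Of 120 member levels under other scalings or lengths, 65 moved by more than 1 SD and 55 did not. Of 280 counts of pathway genes called, 21 moved by more than 1.5 times. With replicates 1 to 3 alone, 2 chain synthesis genes and 9 ligands and receptors rose with ethanol in IP. Beyond those in the report, *Gpc2* passed for IP against input with sense strand counts (0.90, adjusted p = 0.0199) and *Sdc3* passed for ethanol in IP with the replicate number as a block (0.061, adjusted p = 0.0355), though with the GC and length correction it was at -0.00031 (adjusted p = 0.995). That number is shared by control and ethanol dishes without a stated link, and deviations of same-numbered IP libraries correlated at r = -0.149 to 0.399, so this block is a number only. It moved calls for ethanol in IP from 5233 to 5782 over all genes. Low counts limit *Gpc2*, *Gpc5* and *Gpc3*, and a test of 3 with 3 input libraries limits small ethanol effects.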
